A study of Homo sapiens with 43 samples.

Results

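ITPKB, IRAG2, CD81, RBM38 and TSPOAP1 are 5 of 20037 protein-coding genes, and were chosen by the width and the fold enrichment of their peaks, which were the widest or the strongest of several peak lists from SUDHL5 cells. Each gene was followed through 33 peak lists over its span and 5 kb on either side, on the human build hg38. Covered length means the bases of that window that lie under at least 1 peak, in kb, and a peak that runs past the window counts only up to its edge. Because values of the SUDHL5 lists chose the genes, those values are given as a description with no test. The KARPAS422 lists were not used in the choice and were tested.

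CDK9 is the kinase of the elongation factor P-TEFb, which releases paused RNA polymerase II into the gene body. Paused polymerase near a start site is rich in phosphorylation of serine 5 of its C-terminal repeats (Ser5P), and polymerase that moves through a gene and past its end is rich in phosphorylation of serine 2 (Ser2P). The compound CDK-TCIP1 joins a ligand of CDK9 to a ligand of BCL6, the repressor that holds the germinal-centre programme of B cells. ITPKB is a kinase that adds a phosphate to inositol trisphosphate (IP3), the messenger that opens calcium stores after antigen receptor signalling. IRAG2, earlier named LRMP, is an endoplasmic reticulum membrane protein of lymphoid cells that associates with IP3 receptors. CD81 is a tetraspanin, a membrane protein that organises other proteins at the surface of B cells, RBM38 is an RNA-binding protein and p53 target that acts on mRNA stability, and TSPOAP1 is a RIM-binding scaffold protein best known from the presynaptic active zone of neurons.

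The cells were SUDHL5 and KARPAS422, established cell lines from diffuse large B-cell lymphomas. Treated cells received 30 nM CDK-TCIP1 in 0.1% DMSO, and control cells received 0.1% DMSO alone. ChIP for CDK9 was made at 2 h in 3 sets of 2 treated and 2 DMSO lists: SUDHL5 with antibody ab239364, SUDHL5 with antibody CST2316S, and KARPAS422 with CST2316S. In SUDHL5, Ser2P and Ser5P had 2 lists a group and total polymerase (Pol II) had 3, the groups being DMSO for 4 h and the compound for 2 h or 4 h. The polymerase comparisons at 2 h and at 4 h therefore share their DMSO lists, and at 2 h the groups differ in time as well as in compound. Per the labels' protocol, cells were washed in PBS that held CDK-TCIP1 before crosslinking, and no exception is stated for DMSO cells. Nothing in the labels says that replicates came from separate cultures, so p-values measure only the spread between these samples.

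The lists held from 138 to 28951 peaks: 915 to 14554 for CDK9, 6519 to 28951 for Ser2P, 10816 to 17784 for Ser5P and 138 to 4000 for Pol II. Mean list cover with CDK9 was 10.2 Mb in treated and 1.32 Mb in DMSO lists for ab239364, 15.7 and 1.43 Mb for CST2316S in SUDHL5, and 15.96 and 9.49 Mb for KARPAS422. With Ser2P it was 16.9 Mb in DMSO, 8.67 Mb at 2 h and 12.7 Mb at 4 h of CDK-TCIP1. With Ser5P it was 15.9, 16.7 and 13.8 Mb in the same order, and with Pol II 1.35, 1.77 and 1.12 Mb. Read totals are not in the files, so depth is unknown, and covered length can move with the size of the list. Counts from equal numbers of top peaks are given for CDK9 beside the counts. Of 11 B-cell marker genes, 4 to 11 had a CDK9 peak, 10 to 11 a Ser2P peak, 11 a Ser5P peak and 0 to 8 a Pol II peak, and 0 to 2 of 7 genes of other tissues (ALB, INS, MYH6 and the like) had a peak in any list. Of 7 T-cell genes, 1 to 4 had a CDK9 peak, 1 to 3 a Ser2P peak, 3 a Ser5P peak and 0 to 2 a Pol II peak, and of 6 myeloid genes 0 to 2, 1 to 3, 1 and 0 to 1 did, at a summed CDK9 cover of up to 21.2 kb for T-cell and 1.70 kb for myeloid genes against up to 148 kb for B-cell genes.

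The annotated positions of the 5 genes (RefSeq, GRCh38.p14) are the frame for all distances, which run from the low-coordinate end of each gene. ITPKB lies at chr1:226631690-226739282 on the minus strand, so that its start is at 107.6 kb, and the non-coding gene ITPKB-IT1 sits inside it from 24.4 to 43.4 kb. IRAG2 lies at chr12:24997575-25108335 on the plus strand, and its window also takes in part of DNAI7. CD81 lies at chr11:2376180-2397397, and its window takes in part of TSSC4. The window of TRPM5 overlaps that of CD81, but the TRPM5 gene itself lies outside it. RBM38 lies at chr20:57391396-57409333 on the plus strand, and its start overlaps RBM38-AS1. TSPOAP1 lies at chr17:58301231-58328795, and its window holds MIR142HG at 29.7 to 31.3 kb, with MIR142, the hairpin of microRNA-142 of blood cells, at 30.0 to 30.1 kb.

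Promoters of RefSeq (GRCh38.p14), 250 bases before to 50 after a start, are shown for ITPKB, IRAG2, RBM38 and MIR142HG because the CDK9 and polymerase peaks lie on or beside them. Capitals mark matches on either strand to the GC box GGGCGG, to the box spelled CCAAT, to the TATA box in the form TATAAA or to the PU.1 site GAGGAAGT, and overlapping matches were each counted. Of 34943 promoters, 44.9% hold the GC box, 34.6% the CCAAT box, 11.6% the TATA box and 2.59% the PU.1 site. The BCL6 core TTCCTAGAA, which 0.375% of promoters hold, has no match in the promoters shown. The wider STAT and BCL6 pattern TTCNNNGAA, which 7.66% hold and which takes in the core, has none either.
RBM38, chr20:57391146-57391445, plus strand: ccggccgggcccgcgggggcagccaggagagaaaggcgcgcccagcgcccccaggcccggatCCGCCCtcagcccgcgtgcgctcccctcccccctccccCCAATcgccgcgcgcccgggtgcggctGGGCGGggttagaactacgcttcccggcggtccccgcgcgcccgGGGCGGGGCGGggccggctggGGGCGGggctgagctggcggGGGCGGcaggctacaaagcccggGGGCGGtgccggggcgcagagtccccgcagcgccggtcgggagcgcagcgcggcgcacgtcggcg
ITPKB, chr1:226739233-226739532, minus strand: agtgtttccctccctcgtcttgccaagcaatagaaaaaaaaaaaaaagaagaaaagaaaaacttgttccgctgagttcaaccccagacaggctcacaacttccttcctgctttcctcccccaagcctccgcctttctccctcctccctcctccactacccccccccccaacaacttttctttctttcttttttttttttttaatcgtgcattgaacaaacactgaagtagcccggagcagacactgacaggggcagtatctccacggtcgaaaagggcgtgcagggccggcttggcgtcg
IRAG2 upstream start, chr12:24997325-24997624, plus strand: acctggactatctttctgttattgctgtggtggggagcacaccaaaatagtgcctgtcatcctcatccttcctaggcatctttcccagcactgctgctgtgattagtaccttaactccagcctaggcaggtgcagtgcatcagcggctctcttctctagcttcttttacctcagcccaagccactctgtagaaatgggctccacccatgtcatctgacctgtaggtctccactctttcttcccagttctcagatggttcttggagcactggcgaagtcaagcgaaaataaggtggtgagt
IRAG2 internal start 1, chr12:25051978-25052277, plus strand: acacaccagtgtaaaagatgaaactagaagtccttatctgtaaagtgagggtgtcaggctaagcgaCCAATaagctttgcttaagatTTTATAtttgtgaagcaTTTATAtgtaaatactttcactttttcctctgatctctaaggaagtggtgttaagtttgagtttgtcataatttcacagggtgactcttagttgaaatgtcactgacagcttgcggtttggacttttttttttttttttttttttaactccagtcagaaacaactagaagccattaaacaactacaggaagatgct
IRAG2 internal start 2, chr12:25052456-25052755, plus strand: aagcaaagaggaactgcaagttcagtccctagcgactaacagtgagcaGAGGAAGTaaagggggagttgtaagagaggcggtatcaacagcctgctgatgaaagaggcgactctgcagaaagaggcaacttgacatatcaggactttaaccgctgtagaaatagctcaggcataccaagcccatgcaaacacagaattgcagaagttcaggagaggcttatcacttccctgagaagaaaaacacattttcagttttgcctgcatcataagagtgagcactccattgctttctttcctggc
MIR142HG, chr17:58332471-58332770, minus strand: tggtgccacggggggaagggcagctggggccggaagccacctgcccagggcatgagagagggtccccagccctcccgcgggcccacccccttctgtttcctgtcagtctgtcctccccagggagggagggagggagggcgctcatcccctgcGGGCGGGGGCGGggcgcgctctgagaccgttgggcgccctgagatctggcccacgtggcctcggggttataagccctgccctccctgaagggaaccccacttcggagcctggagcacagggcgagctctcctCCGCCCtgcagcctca

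The promoters differed in base composition. The RBM38 promoter had 82.7% GC and 47 CpG, more than in 97.6% of all promoters, whose medians were 58.7% GC and 14 CpG. It held 7 GC boxes and 1 CCAAT match. The MIR142HG promoter had 71.3% GC, 17 CpG and 3 GC boxes. The ITPKB promoter had 50.0% GC and 11 CpG with no match to the motifs searched, and the 3 IRAG2 promoters had 50.3, 34.7 and 46.3% GC with 3, 2 and 4 CpG. The first internal IRAG2 promoter held 1 CCAAT match and 2 TATA box matches, and the second held 1 GAGGAAGT match. The matches describe the letters and do not show binding.

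The TSPOAP1 window is the place of MIR142, whose mature microRNAs are shown because peaks covered the hairpin in all 33 lists. Capitals mark the seed, bases 2 to 8. The arms lie on the minus strand at chr17:58331245-58331267 for 3p and chr17:58331283-58331303 for 5p, and their seeds differ.
hsa-miR-142-3p: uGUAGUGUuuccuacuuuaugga
hsa-miR-142-5p: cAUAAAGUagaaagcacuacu

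Across the 33 lists, a peak lay in the window of TSPOAP1 in 33, RBM38 in 32, IRAG2 in 32, ITPKB in 31 and CD81 in 30. The smallest list, Pol II at 4 h of CDK-TCIP1 replicate 1 with 138 peaks, held a peak in the TSPOAP1 window, beyond the gene itself. It held none in the windows of the other members. The widest peak of a list lay in the window of a member in 19 lists: RBM38 in 8, TSPOAP1 in 8, ITPKB in 2 and CD81 in 1. The peak of highest fold enrichment lay over a member in 6 lists, TSPOAP1 in 5 and IRAG2 in 1. The widest member peaks were 41.8 kb at ITPKB, 24.5 kb at IRAG2, 23.9 kb at RBM38 and 19.7 kb at TSPOAP1, all in Ser5P DMSO replicate 1, and 20.6 kb at CD81 in Ser2P at 4 h replicate 1.

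Members also differed in how their cover was divided. ITPKB reached 47 and IRAG2 41 separate peaks in one list, against at most 14 for CD81, 7 for RBM38 and 4 for TSPOAP1. Outside the members, wider peaks lay by LINC01991 at up to 64.0 kb, and stronger ones lay over KMT5B, up to 303 fold with ab239364. BCL6, BRD2, RHOH and MALAT1 were other holders of a widest peak, and ZCCHC7, NLK, PLEKHA8, JUND, RPS2, RPLP0, PFKFB3, GTF2A1 and MKNK2 were among those of a strongest one.

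At ITPKB, CDK9 peaks in SUDHL5 covered much more of the gene after 2 h of CDK-TCIP1 than in DMSO with both antibodies. With CST2316S the covered length was 69.9 and 63.7 kb in treated lists, against 5.12 and 5.18 kb in DMSO lists. With ab239364 it was 38.9 and 47.98 kb in treated lists, against 0 and 2.30 kb in DMSO lists. Both treated lists lay far above both DMSO lists in each set. The log2 ratio of group means, with 0.1 kb added to each, was 3.67 with CST2316S (66.8 ± 4.38 against 5.15 ± 0.0438 kb, SD, n = 2 each) and 5.12 with ab239364 (43.4 ± 6.46 against 1.15 ± 1.62 kb). The ratio with CST2316S was above that of 67.2% of genes with a peak in its comparison. The ratio with ab239364 was above that of 98.2% of genes with a peak in its own comparison. It rests on DMSO replicate 2, since replicate 1 listed no peak. Without replicate 2 the DMSO mean is 0 kb, and the size of the ratio is set by the 0.1 kb added.

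The treated ITPKB domain formed one long peak with CST2316S. It was 39.5 kb wide in replicate 1 and 37.9 kb in replicate 2, ranks 3 and 2 by width in their lists, whereas the widest DMSO peaks were 1.88 and 2.07 kb. It ran from 18.4 to 57.9 kb in replicate 1 and took in the whole of ITPKB-IT1. DMSO peaks covered 11.3 and 10.3% of ITPKB-IT1. A second stretch, 100.9 to 110.0 kb, held the ITPKB start and was covered in both treated lists and in no DMSO list of this antibody. With ab239364 the cover was in many smaller peaks, 27 and 22 in treated lists against 0 and 4 in DMSO lists, among them one of 11.1 kb at 42.2 to 53.2 kb and one of 101.1 to 108.5 kb in treated replicate 2. The ITPKB promoter shown above carried a peak in 2 of 2 treated lists with each antibody and in 0 of 2 DMSO lists with each.

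**Figure D1:**
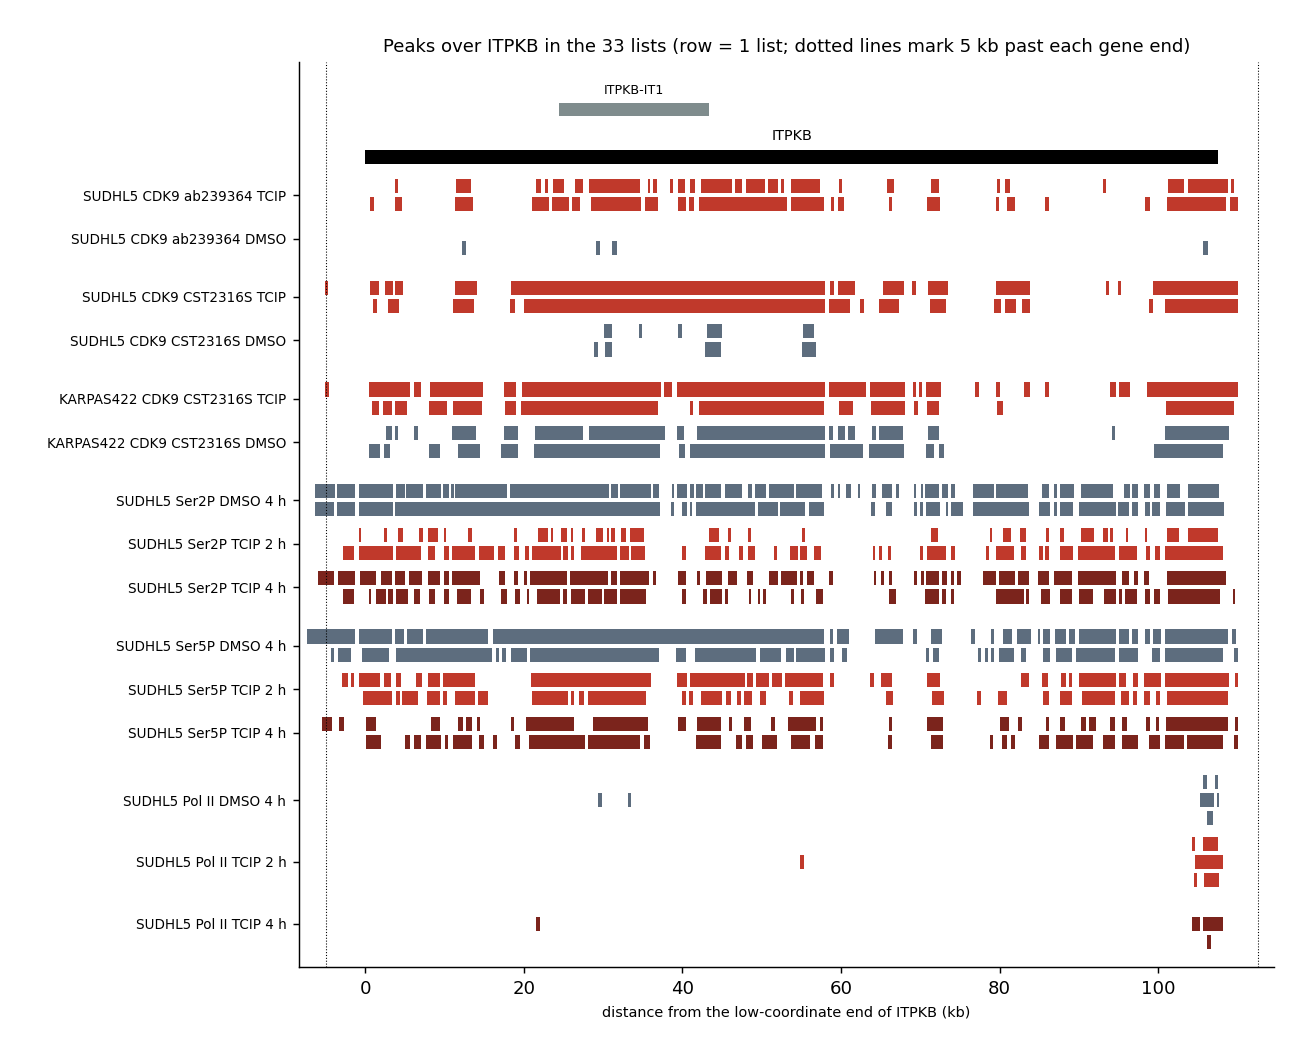
Peaks over ITPKB in the 33 lists, one row per list, against distance from the low-coordinate end of the gene in kb; red rows are CDK-TCIP1 (dark red at 4 h), grey-blue rows DMSO, and the dotted lines mark 5 kb beyond the gene ends. With CST2316S in SUDHL5, one treated CDK9 peak spans 18.4 to 57.9 kb where DMSO has 1.88 and 2.07 kb as its widest, while KARPAS422 has long peaks in DMSO too.

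IRAG2 already had long CDK9 peaks in DMSO with CST2316S, and these were longer and fewer after treatment. Covered length was 43.1 and 45.03 kb in treated lists, against 25.1 and 25.5 kb in DMSO lists, a log2 ratio of 0.80. With ab239364 it was 21.2 and 33.4 kb in treated lists, against 3.37 and 5.53 kb in DMSO lists, a log2 ratio of 2.59. Treated and DMSO lists did not overlap in either set. The CST2316S ratio was above that of only 4.57% of genes with a peak in the comparison, and 22.5 kb of IRAG2 was common to all 4 lists.

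The IRAG2 peaks with CST2316S numbered 5 and 3 in treated lists, against 11 and 12 in DMSO lists. In treated replicate 2 the gene was covered by 3 domains, from -4.91 to 13.7, 15.6 to 29.65 and 53.1 to 65.4 kb. The authors' fold enrichment of the strongest IRAG2 peak was 132 and 123 in treated lists, ranks 3 and 1 in their lists, and 12.3 and 9.28 in DMSO lists. Fold enrichment is set against the background of its own list and was not compared between lists. A summit recurred in IRAG2 between 23.14 and 23.20 kb in all 12 CDK9 lists, of both antibodies and both lines. The peak at the upstream start had its summit at 0.764 and 0.751 kb in the treated CST2316S lists. The 2 internal IRAG2 promoters, 54.4 and 54.9 kb into the gene, were fully covered in all 4 CST2316S lists of SUDHL5.

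**Figure D2:**
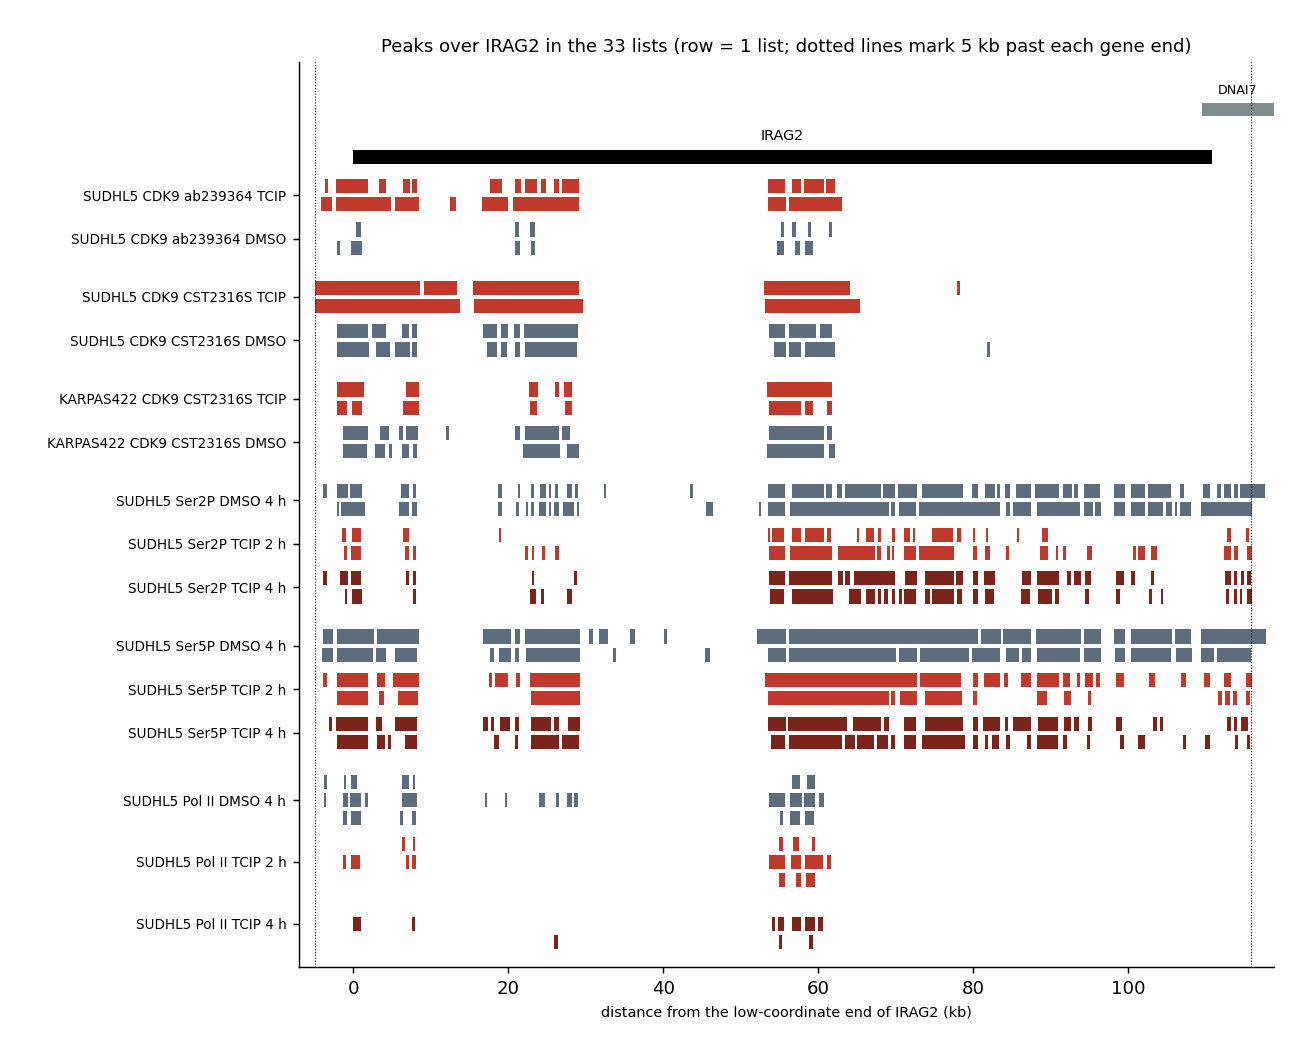
Peaks over IRAG2 in the 33 lists, one row per list, against distance from the low-coordinate end of the gene in kb; red rows are CDK-TCIP1 (dark red at 4 h), grey-blue rows DMSO. CDK9 peaks gather in 3 domains, the widest treated one at 18.6 kb, and Ser2P and Ser5P peaks fill more of the gene in DMSO than after CDK-TCIP1.

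CD81 and RBM38 had little CDK9 cover in DMSO SUDHL5 and several kb after treatment. At CD81, ab239364 gave 7.45 and 7.80 kb in treated lists, against 0.562 and 2.32 kb in DMSO lists. CST2316S gave 5.97 and 5.36 kb in treated lists, against 0 and 0.536 kb in DMSO lists. The groups did not overlap, with log2 ratios of 2.33 and 3.97, above those of 62.8 and 73.9% of genes with a peak. The treated CD81 peak was inside the gene, from 8.50 to 14.5 kb in CST2316S replicate 1, and the one DMSO peak with this antibody lay within that stretch at 9.16 to 9.70 kb. With ab239364, the DMSO peaks lay between 9.02 and 10.8 kb, but for one in replicate 2 beyond the gene, at 24.3 to 25.3 kb.

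At RBM38, ab239364 gave 8.61 and 8.95 kb in treated lists, against 0.369 and 1.67 kb in DMSO lists. CST2316S gave 8.06 and 7.59 kb in treated lists, against 0.830 and 0.790 kb in DMSO lists. The groups did not overlap, with log2 ratios of 2.99 and 3.12, above those of 78.6 and 54.5% of genes with a peak. The treated RBM38 cover was split into 4 peaks in each of the 4 lists. With CST2316S replicate 1 these were upstream of the start, from -2.05 to -0.112 kb, and inside the gene at 0.275 to 1.95, 4.84 to 5.21 and 5.76 to 9.84 kb, while each DMSO list with this antibody had only an upstream peak, with summits at -1.39 and -1.32 kb. The RBM38 promoter was touched by a peak in 2 of 2 treated lists with each antibody, and in 1 of 2 (ab239364) and 0 of 2 (CST2316S) DMSO lists.

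TSPOAP1 differed least between treated and DMSO SUDHL5 lists by cover within its window. With CST2316S it was 4.10 and 4.01 kb in treated lists, against 3.73 and 3.69 kb in DMSO lists, a log2 ratio of 0.12. With ab239364 it was 7.72 and 7.41 kb in treated lists, against 4.22 and 8.52 kb in DMSO lists, a log2 ratio of 0.25. The groups did not overlap with CST2316S and overlapped with ab239364. The window edge hides part of the CST2316S difference, because the full peak was 10.7 and 10.7 kb in treated lists, running to 39.2 kb, and the widest was 3.00 and 3.69 kb in DMSO lists.

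The CDK9 peaks of this window lay mostly or wholly beside TSPOAP1. In all 4 CST2316S lists of SUDHL5, 0% of the TSPOAP1 span was covered, and the covered share was 3.96 to 14.2% with ab239364 and 0.0979 to 6.82% in KARPAS422. Ser2P covered 15.3 to 37.7% of the TSPOAP1 span, Ser5P 13.6 to 34.8% and Pol II 0 to 14.1%. MIR142HG and the MIR142 hairpin were covered in full in each of the 33 lists of every target. TSPOAP1-AS1, which reaches from 24.2 kb to beyond the window, also lies under these peaks, and peaks carry no strand, so the source gene of the signal cannot be told apart here.

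By count, 4 of 5 members (all but TSPOAP1) had more cover in both treated than in both DMSO lists with ab239364, where 58.7% of genes with a peak did so, and 5 of 5 with CST2316S, where 67.8% did so. No member had less cover in both treated lists, against 0.0253 and 0.0225% of genes. Median log2 ratios were 2.59 over members and 1.88 over all genes with ab239364, and 3.12 and 2.92 with CST2316S. When the same number of top peaks by q was taken from each list (915 for ab239364, 1264 for CST2316S), 3 and 4 members had more cover in both treated lists, and CD81 with ab239364 turned to a log2 ratio of -1.93.

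The share of all bases under peaks in a list did not move one way. ITPKB took 0.439% of treated and 0.0556% of DMSO cover with ab239364, and 0.427 and 0.363% with CST2316S, higher in both treated lists each time. IRAG2 took 0.282% of treated and 1.78% of DMSO cover with CST2316S, and TSPOAP1 0.0259 and 0.261%. Both were lower in both treated lists. RBM38 was also lower in both treated lists with CST2316S, at 0.05003% of treated and 0.05688% of DMSO cover. With ab239364, CD81 (0.0787 and 0.1052%) and TSPOAP1 (0.07887 and 0.5741%) were lower in both treated lists. The groups overlapped for RBM38 and IRAG2 with ab239364 and for CD81 with CST2316S.

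**Figure D3:**
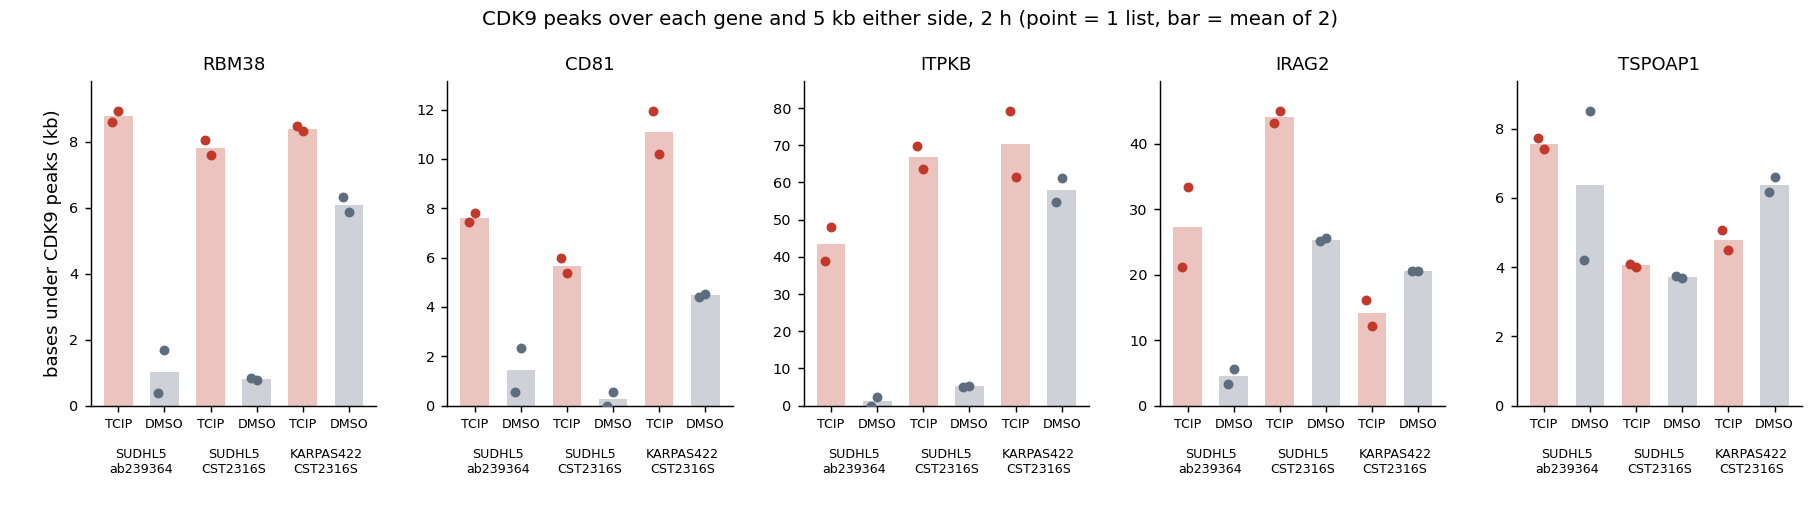
Bases under CDK9 peaks (kb) in the window of each member, in SUDHL5 with ab239364, SUDHL5 with CST2316S and KARPAS422 with CST2316S; points are lists, bars group means (n = 2), treated (TCIP, for CDK-TCIP1) left of DMSO. ITPKB in SUDHL5 with CST2316S sits at 69.9 and 63.7 kb treated against 5.12 and 5.18 kb in DMSO, and IRAG2 and TSPOAP1 in KARPAS422 are lower in both treated lists.

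In KARPAS422, which was not used to choose the genes, DMSO cells already had CDK9 peaks at all 5 members. After CDK-TCIP1, cover was longer in both lists at CD81, RBM38 and ITPKB and shorter in both at IRAG2 and TSPOAP1. CD81 had 11.96 and 10.2 kb of cover in treated lists, against 4.42 and 4.54 kb in DMSO lists. The difference was 6.60 kb, the groups did not overlap, and the exact two-sided permutation p was 0.333. With 2 lists against 2, 0.333 is the smallest p this test can give, so no difference in this set can pass the threshold of 0.05.

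RBM38 had 8.47 and 8.31 kb in treated lists, against 6.34 and 5.86 kb in DMSO lists. ITPKB had 79.3 and 61.6 kb in treated lists, against 54.7 and 61.2 kb in DMSO lists. Both were higher in both treated lists, RBM38 by a mean of 2.30 kb and ITPKB by 12.5 kb (exact permutation p = 0.333 each). For ITPKB the lower treated list (61.56 kb) and the higher DMSO list (61.23 kb) were nearly level, and its difference was 3.57 kb without treated replicate 1, 21.3 kb without treated replicate 2 and 15.7 kb without DMSO replicate 2.

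IRAG2 had 16.2 and 12.1 kb in treated lists, against 20.6 and 20.6 kb in DMSO lists. TSPOAP1 had 5.07 and 4.50 kb in treated lists, against 6.16 and 6.61 kb in DMSO lists. Both were lower in both treated lists, by 6.44 and 1.60 kb (exact permutation p = 0.333 each). Of the IRAG2 cover, 9.37 kb was common to all 4 lists and 3.98 kb was in both DMSO and neither treated list. The share of list cover was lower in both treated lists too, 0.0906% in treated and 0.222% in DMSO lists for IRAG2, and 0.0312 and 0.0683% for TSPOAP1. For ITPKB, higher by length, the share was lower in both treated lists (0.453 against 0.619%), for RBM38 it overlapped (0.0554 against 0.066%), and for CD81 it was higher in both (0.0719 against 0.0481%).

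The KARPAS422 counts were 3 of 5 members with more cover in both treated lists, where 37.0% of 8157 genes had more, and 2 of 5 with less, where 6.66% had less. With equal numbers of top peaks (6689 per list), and also with the gene span alone, 2 members were higher in both treated lists, because the ITPKB groups then overlapped (exact permutation p = 0.667 each). The median log2 ratio was 0.28 over members and 0.94 over all genes. Peak numbers and widths had exact permutation p-values from 0.333 to 1. RBM38 was in 2 and 2 peaks in treated lists, against 4 and 4 in DMSO lists, the peaks upstream of and just inside the gene being joined across the promoter, which was fully covered in 2 of 2 treated and 0 of 2 DMSO lists. The widest CD81 peak was 10.3 and 6.99 kb in treated lists, against 3.79 and 4.54 kb in DMSO lists, with a common left edge between 8.42 and 8.48 kb. By width of the widest peak, no member was lower in both treated lists.

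ITPKB had long CDK9 domains in all 4 KARPAS422 lists, at the places where SUDHL5 had them after treatment. The widest ITPKB peaks in KARPAS422 were 18.7 and 17.3 kb in treated lists, against 16.2 and 17.03 kb in DMSO lists, all among the 4 widest of their lists. Stretches of 28.2 to 36.9, 42.1 to 57.9 and 101.0 to 108.2 kb were common to all 4 lists. ITPKB-IT1 was covered by 94.6 and 75.1% in treated and 79.7 and 84.03% in DMSO lists. The ITPKB promoter was fully covered in 2 of 2 treated and 2 of 2 DMSO lists, unlike in SUDHL5. Levels were not compared between the lines, since the lists have no common scale.

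**Figure D4:**
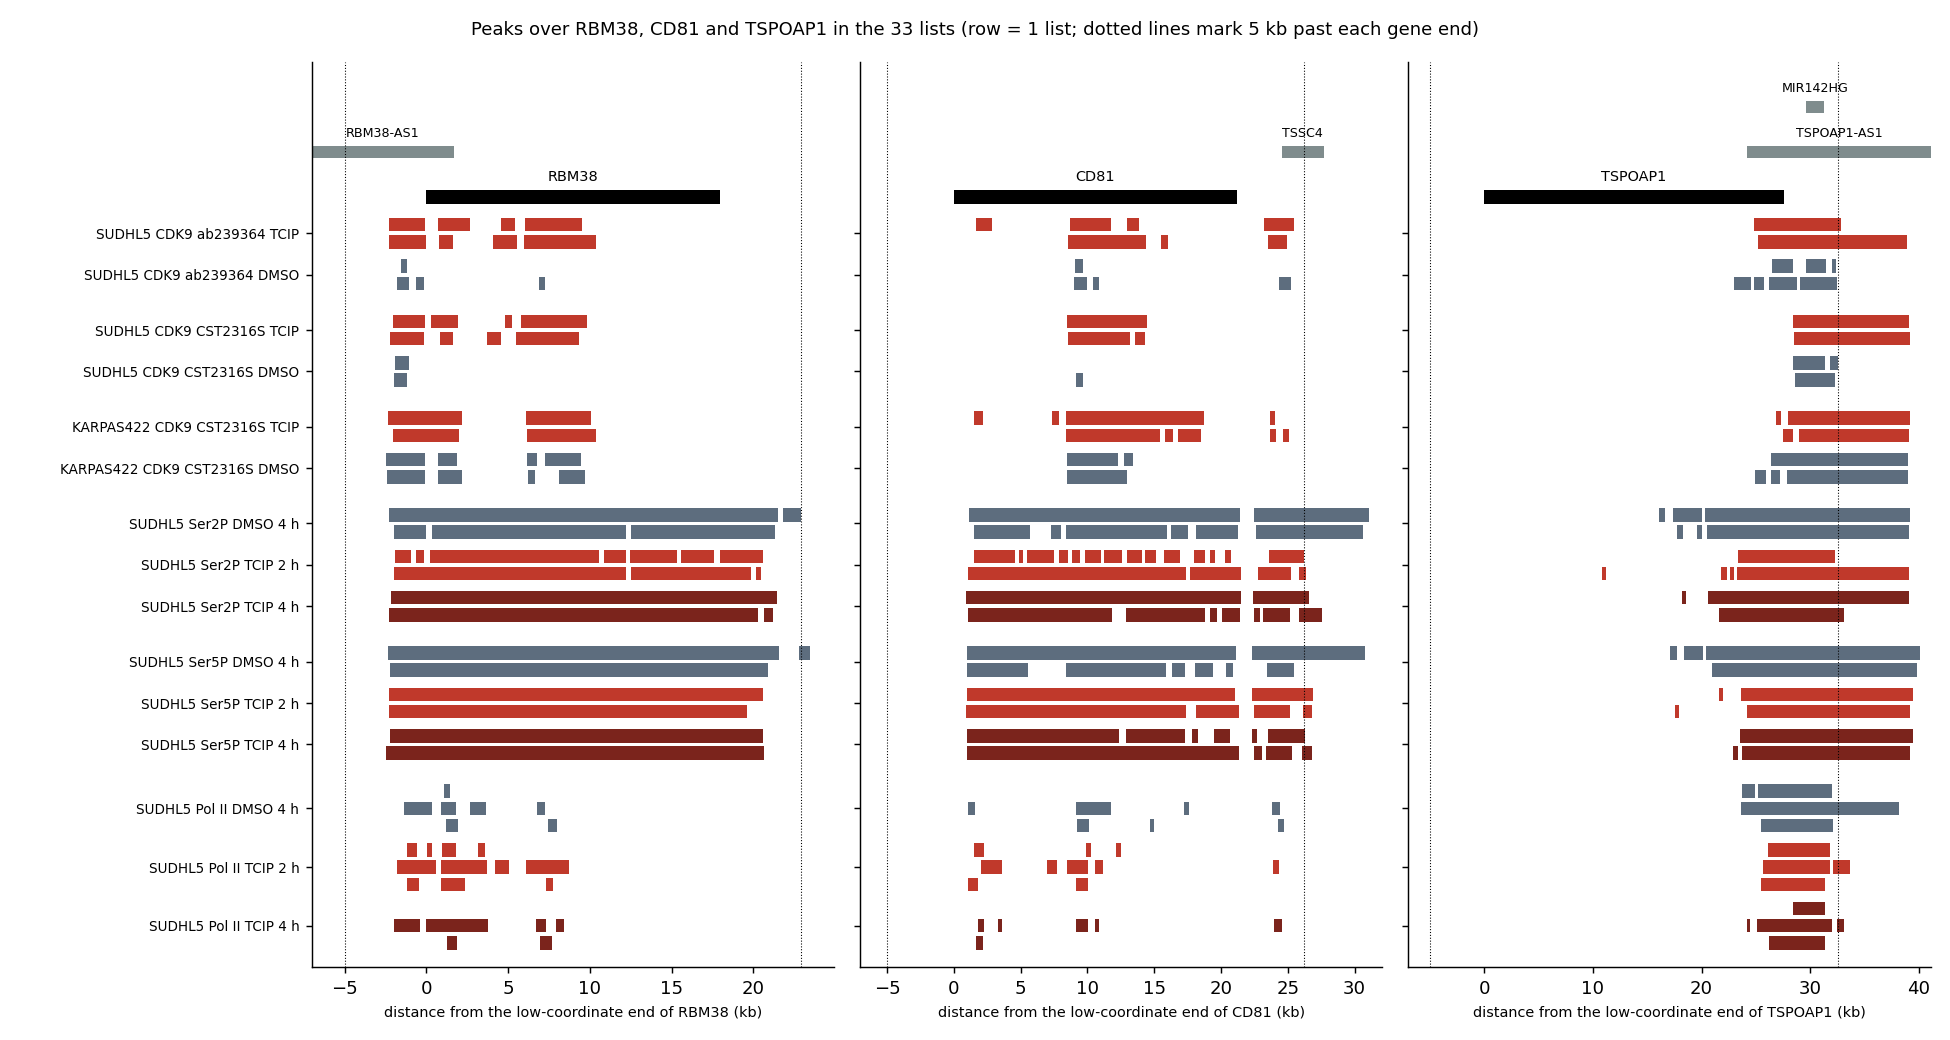
Peaks over RBM38, CD81 and TSPOAP1 in the 33 lists, one row per list, against distance from the low-coordinate end of each gene in kb; red rows are CDK-TCIP1 (dark red at 4 h), grey-blue rows DMSO. RBM38 is under 1 peak of 21.9 to 23.1 kb in the treated Ser5P lists, the main CD81 CDK9 peak after CDK-TCIP1 starts between 8.42 and 8.59 kb with CST2316S and reaches 14.5 kb in SUDHL5 and 18.7 kb in KARPAS422 replicate 1, and the TSPOAP1 window is covered beyond the gene, over MIR142HG.

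The serine-phosphorylated polymerase covered nearly all of RBM38 and most of CD81 with or without compound. At RBM38, Ser5P cover was 24.1 and 23.1 kb in DMSO at 4 h, 22.9 and 21.9 kb at 2 h, and 22.9 and 23.1 kb at 4 h of CDK-TCIP1. Ser2P cover was 24.9 and 22.6 kb, 20.6 and 21.9 kb, and 23.6 and 23.1 kb in the same order. Ser5P covered 100% of the RBM38 span in all 6 lists and Ser2P 92.1 to 100%. Cover was lower in both lists at 2 h for both marks, by log2 ratios of -0.07 (Ser5P) and -0.16 (Ser2P), and at 4 h the groups overlapped. As a share of list cover, the groups overlapped at both times for both marks. The RBM38 peak ranked first by width in 5 of the 6 Ser5P lists.

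At CD81, Ser2P cover was 24.1 and 20.7 kb in DMSO at 4 h, 16.6 and 23.1 kb at 2 h, and 24.4 and 21.3 kb at 4 h. Ser5P cover was 24.04 and 16.9 kb, 23.9 and 22.45 kb, and 20.6 and 23.01 kb. By covered length the groups overlapped in all 4 comparisons. As a share of list cover, CD81 with Ser2P was higher in both treated lists at each time (0.281 and 0.182% treated, 0.136% DMSO). With Ser5P its share overlapped at 2 h (0.14 against 0.13%) and was higher in both treated lists at 4 h (0.159 against 0.13%). Of the CD81 span, Ser2P covered 66.1 to 95.7% and Ser5P 70.2 to 95.3%. Ser2P at 2 h replicate 1 broke CD81 into 14 peaks where replicate 2 had 4, and that list held 6519 peaks against 16170 in replicate 2. TSSC4, beside CD81, was covered by 52.7 to 100% with Ser2P.

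At ITPKB, Ser2P and Ser5P cover was lower at both times of CDK-TCIP1 than in DMSO, in every list. Ser5P covered 91.8 and 77.4 kb in DMSO at 4 h, 66.96 and 55.6 kb at 2 h, and 45.7 and 56.2 kb at 4 h. Ser2P covered 83.95 and 88.9 kb in DMSO at 4 h, 26.1 and 62.2 kb at 2 h, and 68.8 and 51.96 kb at 4 h. Groups did not overlap, with log2 ratios of -0.46 and -0.73 (Ser5P) and -0.97 and -0.52 (Ser2P) at 2 h and 4 h. The Ser2P ratios were above those of 42.7 and 38.2% of genes with a peak. As a share of list cover, Ser2P groups overlapped at both times (0.5405 and 0.476% treated, 0.538% DMSO). The Ser5P share was lower in both treated lists at each time (0.368 and 0.369% treated, 0.549% DMSO). The widest ITPKB peak was 41.8 and 16.2 kb in Ser5P DMSO lists, 15.2 and 7.72 kb at 2 h and 7.86 and 7.03 kb at 4 h. The stretch at the ITPKB start from 103.6 to 108.2 kb was common to the DMSO and 4 h lists of Ser5P.

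At IRAG2 too, Ser2P and Ser5P cover was lower in every list of both times. Ser5P covered 83.1 and 74.9 kb in DMSO at 4 h, 57.9 and 41.9 kb at 2 h, and 50.7 and 45.1 kb at 4 h. Ser2P covered 53.7 and 64.3 kb in DMSO at 4 h, 17.3 and 31.5 kb at 2 h, and 36.6 and 29.7 kb at 4 h. Groups did not overlap, with log2 ratios of -0.66 and -0.72 (Ser5P) and -1.27 and -0.83 (Ser2P). For Ser5P the 2 h ratio was above that of 9.92% and the 4 h ratio above that of 17.3% of genes with a peak. For Ser2P these were 30.8 and 28.7%. As a share of list cover, Ser2P groups overlapped at both times (0.321 and 0.262% treated, 0.372% DMSO). The Ser5P share was lower in both treated lists at each time (0.298 and 0.353% treated, 0.517% DMSO). The stretch of IRAG2 from 56.2 to 69.1 kb, just past its internal starts, was common to the DMSO and 2 h lists of Ser5P.

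In the TSPOAP1 window, Ser2P cover was 15.4 and 13.2 kb in DMSO at 4 h, 8.94 and 10.5 kb at 2 h, and 12.3 and 10.9 kb at 4 h. Ser5P cover was 14.6 and 11.6 kb, 9.28 and 8.75 kb, and 8.98 and 9.33 kb. Groups did not overlap, with log2 ratios of -0.55 and -0.30 (Ser2P) and -0.54 and -0.51 (Ser5P) at 2 h and 4 h. As a share of list cover, Ser2P groups overlapped at both times, and the Ser5P share was lower in both treated lists at each time. The Ser2P peak here had the highest fold of its list in all but the last of the 6 lists, at 124 and 50.0 in DMSO, 49.0 and 74.8 at 2 h, and 73.9 and 53.8 at 4 h, each against the background of its own list. Its summits lay inside TSPOAP1, at 26.62, 26.77, 27.12 and 27.29 kb, in 4 of the 6 lists, and past its high end at 27.6 kb, at 28.49 and 28.47 kb, in the second lists of DMSO and of 4 h, whereas the Ser5P summits lay from 31.19 to 31.24 kb, at the MIR142HG start.

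By count, no member had more Ser2P or Ser5P cover in every treated list at either time. At 2 h, 4 of 5 had less Ser2P (all but CD81), where 27% of genes had less and 1.12% more, and 4 of 5 had less Ser5P (the same genes), where 7.34% had less and 31.9% more. At 4 h, 3 of 5 (ITPKB, IRAG2 and TSPOAP1) had less Ser2P, where 20.3% of genes had less and 14.5% more, and the same 3 had less Ser5P, where 13.8% had less and 15.3% more. Median log2 ratios for members and all genes were -0.55 and -0.75 (Ser2P, 2 h), -0.30 and -0.19 (Ser2P, 4 h), -0.46 and 0.35 (Ser5P, 2 h), and -0.51 and 0.06 (Ser5P, 4 h). Peaks of these same lists chose the genes, so nothing is read from the counts. By width of the widest peak, 2 members were lower in both lists with Ser2P at 2 h.

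**Figure D5:**
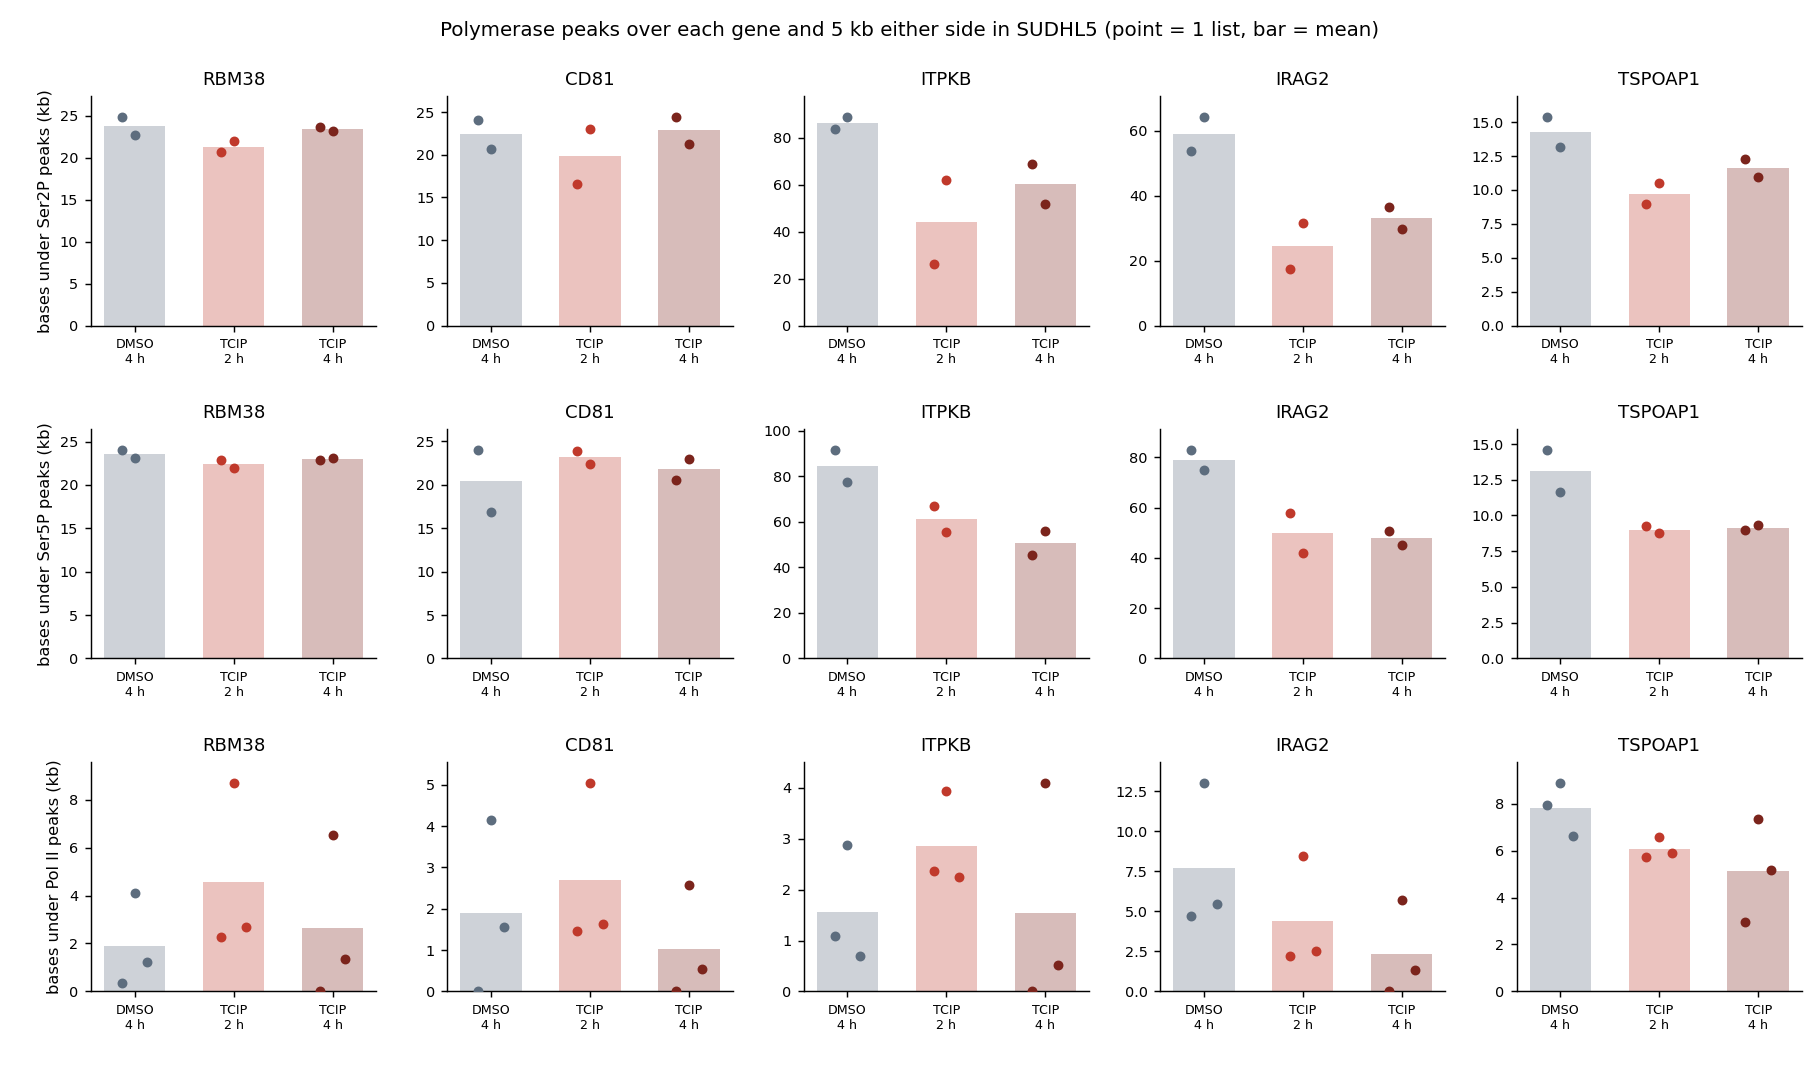
Bases under Ser2P, Ser5P and Pol II peaks (kb) in the window of each member in SUDHL5, for DMSO at 4 h and CDK-TCIP1 (TCIP) at 2 h and 4 h; points are lists and bars group means (n = 2 for Ser2P and Ser5P, n = 3 for Pol II). ITPKB and IRAG2 sit lower after CDK-TCIP1 with both marks (ITPKB Ser5P 91.8 and 77.4 kb in DMSO, 45.7 and 56.2 kb at 4 h), while RBM38 lies between 20.6 and 24.9 kb with both marks.

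Total polymerase lists were short, and member values spread widely between replicates. In the TSPOAP1 window cover was 7.96, 8.90 and 6.62 kb in DMSO at 4 h, 5.74, 6.58 and 5.88 kb at 2 h, and 2.96, 7.33 and 5.16 kb at 4 h. All 3 lists at 2 h lay below all 3 DMSO lists, the closest being 6.58 kb at 2 h and 6.62 kb in DMSO, and the 4 h lists overlapped DMSO. A peak of this window, which also covered MIR142HG, was the widest of its list in 8 of 9 Pol II lists. Counted by the full length of the peaks, a measure chosen after seeing the data, the groups overlapped at 2 h.

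IRAG2 had 4.69, 13.1 and 5.48 kb of Pol II cover in DMSO at 4 h, 2.21, 8.44 and 2.52 kb at 2 h, and 0, 5.73 and 1.36 kb at 4 h. ITPKB had 1.09, 2.87 and 0.703 kb, 2.36, 3.94 and 2.25 kb, and 0, 4.11 and 0.509 kb, mostly near its start. RBM38 had 0.354, 4.12 and 1.25 kb, 2.28, 8.72 and 2.68 kb, and 0, 6.55 and 1.36 kb. Replicate 2 was the highest of each group for all 3 genes, and groups overlapped by covered length. As a share of list cover, IRAG2 was lower in every treated list at each time (means of 0.245 and 0.129% treated, 0.69% DMSO). For ITPKB, RBM38, CD81 and TSPOAP1 the shares overlapped at both times. CD81 ranged from 0 to 5.05 kb over the 9 lists, with overlapping groups.

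At 2 h, 0 of 5 members had more Pol II cover in every treated list, where 1.85% of genes had more, and 1 (TSPOAP1) had less, where 0.13% had less. At 4 h neither count reached 1, against 0.0208 and 0.436% of genes. Replicate numbers were taken as pairs at 2 h, on weak correlations of 0.15, 0.108 and 0.153 between same-numbered lists. The sample titles give only the number and do not say what same-numbered lists share. Each 2 h list also covered more in total than the DMSO list of its number (0.762 against 0.433, 2.98 against 2.33 and 1.56 against 1.28 Mb). The part of list size in the paired counts was not tested. With the replicate number as a block, that is, each treated list set against the DMSO list of its number, 3 members had more cover at 2 h in every pair (ITPKB, RBM38 and CD81) and 2 had less (IRAG2 and TSPOAP1), where 8.22% of genes had more and 1.15% less in every pair.

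By Spearman's rho of the share of list cover over the 33 lists, RBM38 and CD81 were the member pair most alike (0.85), and ITPKB and TSPOAP1 the least (-0.586). Among 3049 genes with a peak in at least 20 lists, RBM38 was most like GGCX (0.883), CD79B (0.878), which encodes a B-cell receptor subunit, and DALRD3 (0.86). CD81 was most like UCP2 (0.879), ARHGEF1 (0.872) and CD79B (0.86). ITPKB was most like NEK6 (0.84), LRRK1 (0.825) and MGAT3 (0.806), and IRAG2 like IKZF3 (0.786), a lymphoid Ikaros-family factor, SGK1 (0.697) and H2AC6 (0.691). TSPOAP1 was most like PTMA (0.954), IFFO1 (0.932) and PPIA (0.926). The median rho over all genes was 0.376 for RBM38, 0.367 for CD81, 0.102 for ITPKB, -0.0376 for IRAG2 and -0.119 for TSPOAP1. The lists share targets and sizes, so these are descriptions without a test.

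Other genes of the members' pathways were counted in the same way, over lists of known partners. Of 21 IP3 and calcium signalling genes matched, 18, 14 and 16 had a CDK9 peak with ab239364, with CST2316S in SUDHL5 and in KARPAS422. Of these, 14 had more cover in both treated lists with ab239364, 13 with CST2316S in SUDHL5 and 6 in KARPAS422, where 58.7, 67.8 and 37.0% of all genes with a peak had more. In KARPAS422, where 6.66% of all genes had less, 1 (CALM2, a calmodulin) had less, at 1.22 kb in both treated lists against 1.39 to 1.75 kb. PLCG2, the phospholipase that makes IP3 after B-cell receptor signalling, had 19.6 to 22.8 kb in treated and 0 to 0.327 kb in DMSO lists with CST2316S in SUDHL5, and 25.02 to 32.97 kb against 12.6 to 22.6 kb in KARPAS422. ITPR2, an IP3 receptor, had 30.1 to 31.45 kb in treated and 1.94 to 3.15 kb in DMSO lists with CST2316S in SUDHL5. NFATC2, a calcium-regulated transcription factor, had 7.56 to 10.45 kb in treated and 0 to 0.336 kb in DMSO lists there. NFATC1, of the same family, had 12.4 to 13.04 kb in treated and 3.14 to 3.79 kb in DMSO lists there, and overlapped in KARPAS422, with 10.1 to 14.7 kb against 10.62 to 10.64 kb. With Ser2P, of 19 with a peak 10 had less at 2 h and none more, and 9 had less and 2 more at 4 h. Of all genes, 27 and 20.3% had less and 1.12 and 14.5% more at 2 h and 4 h. With Ser5P, of 18 with a peak 2 had less and 7 more at 2 h, where 7.34% of all genes had less and 31.9% more. At 4 h, 5 had less and 1 more, where 13.8% of all genes had less and 15.3% more. Median log2 ratios with CDK9 were 2.80 (ab239364), 4.65 (CST2316S in SUDHL5) and 0.92 (KARPAS422), next to 1.88, 2.92 and 0.94 over all genes.

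Of 8 other tetraspanins, 6, 5 and 4 had a CDK9 peak with ab239364, with CST2316S in SUDHL5 and in KARPAS422, and 4 had more cover in both treated lists in each set, next to the shares of all genes above, with none less. CD82 had 4.31 to 6.51 kb of CDK9 cover in treated and 0 kb in DMSO lists with CST2316S in SUDHL5, and 2.58 to 6.72 kb against 1.19 to 1.75 kb in KARPAS422. CD37, another B-cell tetraspanin, had 2.35 to 2.45 kb in treated and 0 kb in DMSO lists with CST2316S in SUDHL5, and 5.74 to 8.15 kb against 1.32 to 1.95 kb in KARPAS422. Both were higher in both treated lists of each set, whereas TSPAN14 was higher in SUDHL5 (7.20 to 8.06 kb in treated and 0 kb in DMSO lists with CST2316S) and had no peak in KARPAS422. CD63, CD151 and TSPAN3 were higher in none of the 3 sets. With Ser2P at 2 h, CD82 had 0.343 to 2.76 kb in treated and 9.27 to 14.3 kb in DMSO lists, without overlap.

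Of 11 RNA stability factors, 9, 6 and 7 had a CDK9 peak with ab239364, with CST2316S in SUDHL5 and in KARPAS422. Of these, 6, 3 and 1 had more cover in both treated lists, where 58.7, 67.8 and 37.0% of all genes with a peak had more. In KARPAS422, 1 (PABPC4) had less, where 6.66% of all genes had less. ZFP36L1, an mRNA decay factor, had 7.68 to 8.56 kb in treated and 3.00 to 3.52 kb in DMSO lists with CST2316S in SUDHL5, and overlapped in KARPAS422. HNRNPD had 2.35 to 2.98 kb against 0 kb in SUDHL5 and 1.98 to 2.06 kb against 1.54 to 1.60 kb in KARPAS422. Of 10 paralogues of the members, 0, 0 and 1 had a CDK9 peak in the 3 sets, so almost no comparison could be made, and the single call among the polymerase comparisons was ITPKC, with 0 to 0.299 kb at 2 h against 1.34 to 2.48 kb in DMSO with Ser2P.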

How the data were processed

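Of 43 ChIP-seq samples, 33 have a peak list and 10 are inputs with no list of their own. The submitters' processing notes name MACS2, the peak caller, next to Bowtie2, Trim Galore, FastQC, Picard, SAMtools, deepTools and bedtools, and the builds dm6 and hg38. Tool versions, caller settings and control libraries were not given in the sources used here. Deposited lists give the authors' fold enrichment, a ratio over the background of each list, and their −log10 p and −log10 q per peak. The deposited score column was not used. The lowest −log10 q was 1.301. Fold and q were used for ranks inside single lists and for a stricter threshold. The files hold no read totals, so depth is unknown and no counting interval is given.

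Of 286536 peaks, 25 on unplaced contigs were left out. Peaks were clipped to each gene span of a RefSeq table (GRCh38.p14) plus 5 kb, and covered length was summed per list with 0.1 kb added for log2 ratios. A gene was higher (or lower) when every treated list lay above (or below) every DMSO list, over genes with a peak in the comparison. KARPAS422 differences had exact two-sided permutation tests at a threshold of 0.05. The members, lists and tests were chosen with earlier results of these data known. Named genes are the members, window neighbours, the 3 most alike genes per member, holders of the widest or strongest peaks, and up to 4 list genes with the most calls; PLCG2 (tied) and PABPC4 were added after their values were seen. A list of tetraspanins and partners is given for its 8 tetraspanins alone, a subset taken after the data were seen. Sample titles give one CDK9 antibody as CST2316S and the protocol as CST2361S, and file names of some DMSO lists say 0 h where labels say 2 h: titles and labels were followed. Replicate numbers were taken as pairs where, with 3 or more pairs, every correlation of same-numbered lists was over 0.1: Pol II at 2 h met this (0.108 to 0.153) and Pol II at 4 h did not (0.061 to 0.171). Sets of 2 lists, at -0.0514 to 0.114, have too few pairs for it. Alternatives were −log10 q of at least 5, equal numbers of top peaks, the gene span alone, the widest peak, 1 kb added, replicate blocks and each list left out. Full peak length was added after the data were seen. Covered lengths were checked on simulated peaks, and calls on simulated covers with planted changes. This check of calls gives no rate of false calls in the real lists. Python 3.11.15, numpy 2.4.6, pandas 2.3.3, scipy 1.17.1 and matplotlib 3.10.9 were used.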

Additional observations from a re-analysis of the deposited data

Results flagged for a closer look

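The log2 ratio of CDK9 cover by CST2316S, treated over DMSO, had opposite directions in the 2 lines at 2 members. At IRAG2 it was 0.80 in SUDHL5, with both treated lists above both DMSO lists, and -0.54 in KARPAS422, with both treated lists below, a difference of 1.34. At TSPOAP1 it was 0.12 in SUDHL5 and -0.41 in KARPAS422, with lists apart in the same way, a difference of 0.534. The TSPOAP1 cover was cut at the window edge. By the widest peak, KARPAS422 groups overlapped at both genes. TSPOAP1 had 11.19 and 10.12 kb in treated against 12.58 and 11.15 kb in DMSO lists, and IRAG2 8.34 and 4.12 kb against 7.08 and 7.33 kb. By the share of list cover both genes were lower in both treated lists in both lines: IRAG2 at 0.282 against 1.78% in SUDHL5 and 0.0906 against 0.222% in KARPAS422, TSPOAP1 at 0.0259 against 0.261% and 0.0312 against 0.0683%. The difference between lines was not tested, the SUDHL5 values helped to choose the genes, and list cover differed less between groups in KARPAS422 (15.96 Mb treated, 9.49 Mb DMSO) than in SUDHL5 (15.7 and 1.43 Mb). The part of list size in these differences was not tested.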

How the results depend on the processing

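Log2 ratios, counts and KARPAS422 differences were recomputed under each alternative. CD81 with ab239364 reversed to a log2 ratio of -1.93 with equal numbers of top peaks (915 per list), and the cause was not tested. By the widest peak, members lower were 0 in KARPAS422 and 2 with Ser2P at 2 h, and 1 was higher with Pol II at 2 h; with equal numbers of top peaks (710), 1 was higher there. With the replicate block, 1 member was higher with Ser2P at 4 h, 3 higher and 2 lower with Pol II at 2 h, and 2 lower with Pol II at 4 h; the KARPAS422 p was 0.5, the smallest that pairs of 2 allow. The block changed no other count. Full peak length, chosen after seeing the data, gave 0 lower with Pol II at 2 h.

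Leaving out 1 list at a time gave, for members higher, 3 to 3 in KARPAS422, 5 to 5 with CST2316S, 4 to 5 with ab239364, 0 to 2 with Pol II at 2 h, 0 to 0 at 4 h, 0 to 0 with Ser2P at 2 h, 0 to 2 at 4 h, and 0 to 1 with Ser5P at 2 h and at 4 h. For members lower it gave 2 to 2 in KARPAS422, 0 to 0 with CST2316S, 0 to 1 with ab239364, 1 to 2 with Pol II at 2 h, 0 to 3 at 4 h, 4 to 5 with Ser2P at 2 h, 3 to 4 at 4 h, 4 to 5 with Ser5P at 2 h and 3 to 5 at 4 h. KARPAS422 differences ran from 5.71 to 7.48 kb (CD81), -8.45 to -4.43 (IRAG2), 3.57 to 21.3 (ITPKB), 2.06 to 2.53 (RBM38) and -1.89 to -1.32 (TSPOAP1). Without DMSO replicate 1 of ab239364, TSPOAP1 became lower, and without DMSO replicate 2 of Ser5P all 5 members were lower at 4 h. With 2 lists against 2, no test could pass, and the unknown depth limits every comparison of width between lists.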
